A study of Mus musculus with 4 samples.

Results

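Potassium channel genes were described across the cell classes of a sorted mouse retina. They were taken as every feature whose symbol begins with Kcn and that held 20 or more unique molecular identifiers (UMIs, counts of single RNA molecules) over all barcodes. This gave 69 genes of 99 Kcn features, in a matrix of 27999 features of which 14266 reached the same minimum. Of the 30 Kcn features left out, 11 had no UMI, and the nearest were Kcnf1 with 15 UMIs and Kcnt2 with 12. The nearest genes inside were Kcnn3 with 22 UMIs and Kcnk10 with 27. The 69 genes held 63893 UMIs in all, and 66 of them are protein-coding in the GENCODE annotation. The other 3, Kcnq1ot1, Kcnd3os and Kcnmb4os2, are non-coding transcripts.

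Single-cell RNA was sequenced from the retinas of C57BL/6 mice aged 3 months, in which a reporter for Brn3b (the POU-domain factor encoded by Pou4f2) marks cells with GFP. GFP-positive cells were sorted to enrich retinal ganglion cells (RGCs), the output neurons of the eye, and made into 10x Chromium 3′ libraries. There was no other treatment or genotype. The labels list 4 retinas in 1 group, and no barcode name ties a cell to a retina, so the data are 1 pooled sample without replicates. No test could be made between groups of barcodes. Intervals below are exact 95% intervals and cover counting error only, not differences between animals.

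The matrix held 3237 barcodes with 3198 to 53709 UMIs each (median 7674), and 2699 passed the cell filter. Classes were set by marker counts. RGC barcodes (929) had Slc17a6, with 3 or more UMIs of Slc17a6 and Rbpms together, and horizontal cell barcodes (407) had Lhx1 without Slc17a6. Bipolar cell barcodes (351) had Trpm1 and Pcp2, and Müller glia barcodes (208) had Rlbp1 and Slc1a3. Amacrine cell barcodes (108) had Slc32a1 with Gad1, Gad2 or Slc6a9. Median depth differed between classes, at 15815 UMIs in RGC, 11194 in horizontal, 5597 in amacrine, 4411 in bipolar and 4677 in Müller barcodes. The marker lists were read without the genes that set the classes. Each was then highest in its own class, with the other 8 RGC markers at 8967 CPM (UMIs of a gene scaled to a common class total of 1000000) in RGC barcodes and between 272 and 892 CPM in the other 4 classes. The closest case was the 4 amacrine markers left, at 368 CPM in RGC, 1474 in horizontal and 3034 in amacrine barcodes. The libraries were not free of other RNA. The rod list stood at 680 CPM in RGC, 733 in horizontal, 1980 in amacrine, 2847 in bipolar and 2100 in Müller barcodes, and its part in the results was not tested.

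Potassium channels let potassium ions leave or enter the cell and so set the resting potential, the length of the action potential and the rate of firing. Voltage-gated (Kv) channels open on depolarization, inward rectifiers (Kir) pass current near rest, tandem-pore (K2P) channels give a background leak, and calcium-activated channels link internal calcium to the membrane. Auxiliary subunits, which form no pore, change the trafficking and gating of the pore-forming proteins. In the retina, Müller glia are known for a large Kir conductance that clears potassium.

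RGC, amacrine and bipolar barcodes had close total levels of Kcn RNA, and horizontal and Müller barcodes lay well below them. The sum over the 69 genes was 2527 CPM in RGC barcodes (2502 to 2552), 1087 in horizontal (1057 to 1118), 2468 in amacrine (2347 to 2593), 2301 in bipolar (2232 to 2372) and 942 in Müller barcodes (883 to 1003). CPM is the share of a class's UMIs, so a lower level cannot be told apart from more RNA of other genes per cell. The make-up of the sum differed more than its size. Kv1 and Kv3 genes, whose channels act in axons and in fast repolarization, gave 14.4% and 15.9% of the Kcn level in RGC barcodes, against 4.26% and 5.73% in horizontal, 19.45% and 12.8% in amacrine, 10.75% and 6.49% in bipolar and 4.87% and 2.07% in Müller barcodes. Amacrine barcodes thus had the highest Kv1 share. Kir genes gave 3.56% in RGC barcodes, against 21.9% in horizontal and 23.2% in Müller barcodes. Calcium- and sodium-activated channel genes gave 3.87% in RGC barcodes and 18.9% in bipolar barcodes, and K2P genes 5.05% in RGC barcodes and 24.8% in Müller barcodes.

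**Figure D1:**
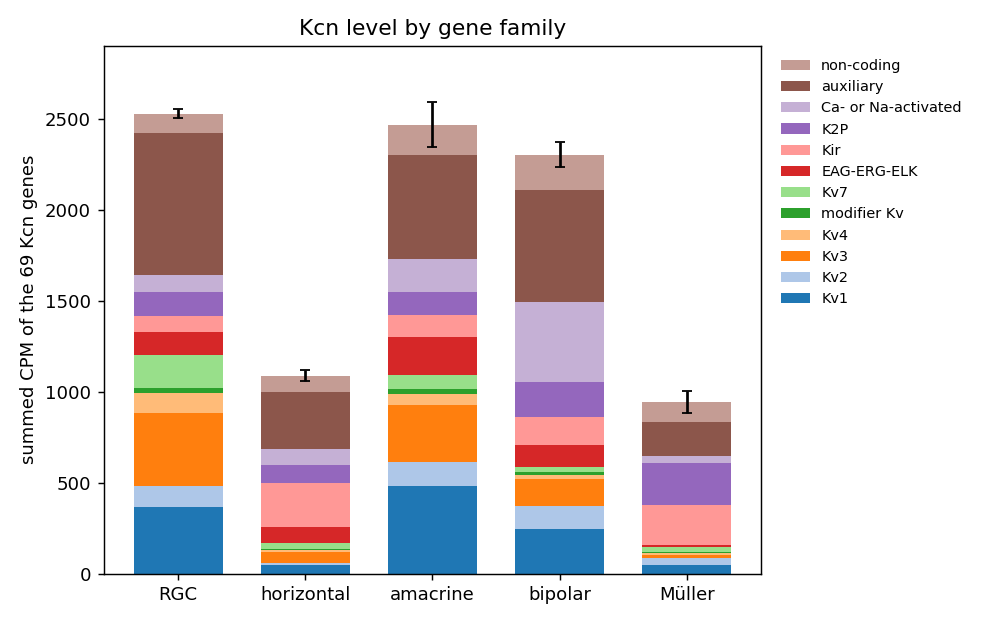
Summed level of the 69 Kcn genes (CPM, vertical axis) in the 5 barcode classes, stacked by gene family, with exact 95% Poisson intervals of the total as error bars. The totals stand at 2527, 1087, 2468, 2301 and 942 CPM from left to right, and the Kir (pink) and Kv3 (orange) layers change places in size between RGC and the horizontal and Müller barcodes.

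A gene was called higher or lower in RGC barcodes where the ratio of (CPM + 5) was 2 or more, or 0.5 or less. Against horizontal barcodes, 26 of the 69 genes were higher and 5 lower by that rule, where 11.3% and 5.17% of all 14266 features were called higher and lower. Against amacrine barcodes, 14 were higher and 8 lower (6.39% and 5.77% of all features). Against bipolar barcodes, 26 were higher and 9 lower (13.6% and 8.47%). Against Müller barcodes, 35 were higher and 5 lower (17.5% and 13.3%). A class without a UMI entered these calls as 0 CPM. With such a class set to 3 UMIs, a setting added after the data were seen, 26 genes were higher against horizontal, 9 against amacrine, 25 against bipolar and 29 against Müller barcodes, and the counts of lower genes did not move. These backgrounds are not matched on expression level, so a share above them is a description of the list. The median log2 ratio of the 69 genes was 0.54 against horizontal, -0.15 against amacrine, 0.41 against bipolar and 1.04 against Müller barcodes, where the median over all features was 0.09, -0.02, 0.04 and 0.11.

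By family, Kcnb2 of the Kv2 genes, Kcnd2 and Kcnd3 of the Kv4 genes, 3 of 5 Kv1 genes and Kcnc1, Kcnc2 and Kcnc4 of the Kv3 genes were higher in RGC than in horizontal barcodes. None of the 5 Kv1 and 3 Kv4 genes was lower. Among 10 Kir genes 1 was higher and 2 were lower, and among 9 auxiliary genes 4 were higher and 3 lower. Against Müller barcodes Kcnc1, Kcnc2 and Kcnc4, all 3 Kv4 genes and 5 of 6 Kcnh genes (the EAG, ERG and ELK family) were higher. Of these, the calls of Kcnd1, Kcnh1, Kcnh5 and Kcnh8 rest on 0 UMIs in Müller barcodes and were lost with 3 UMIs in that place. Against amacrine barcodes the Kv1 genes split, with 1 higher and 2 lower, and none of the 8 calcium- and sodium-activated genes was higher.

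**Figure D2:**
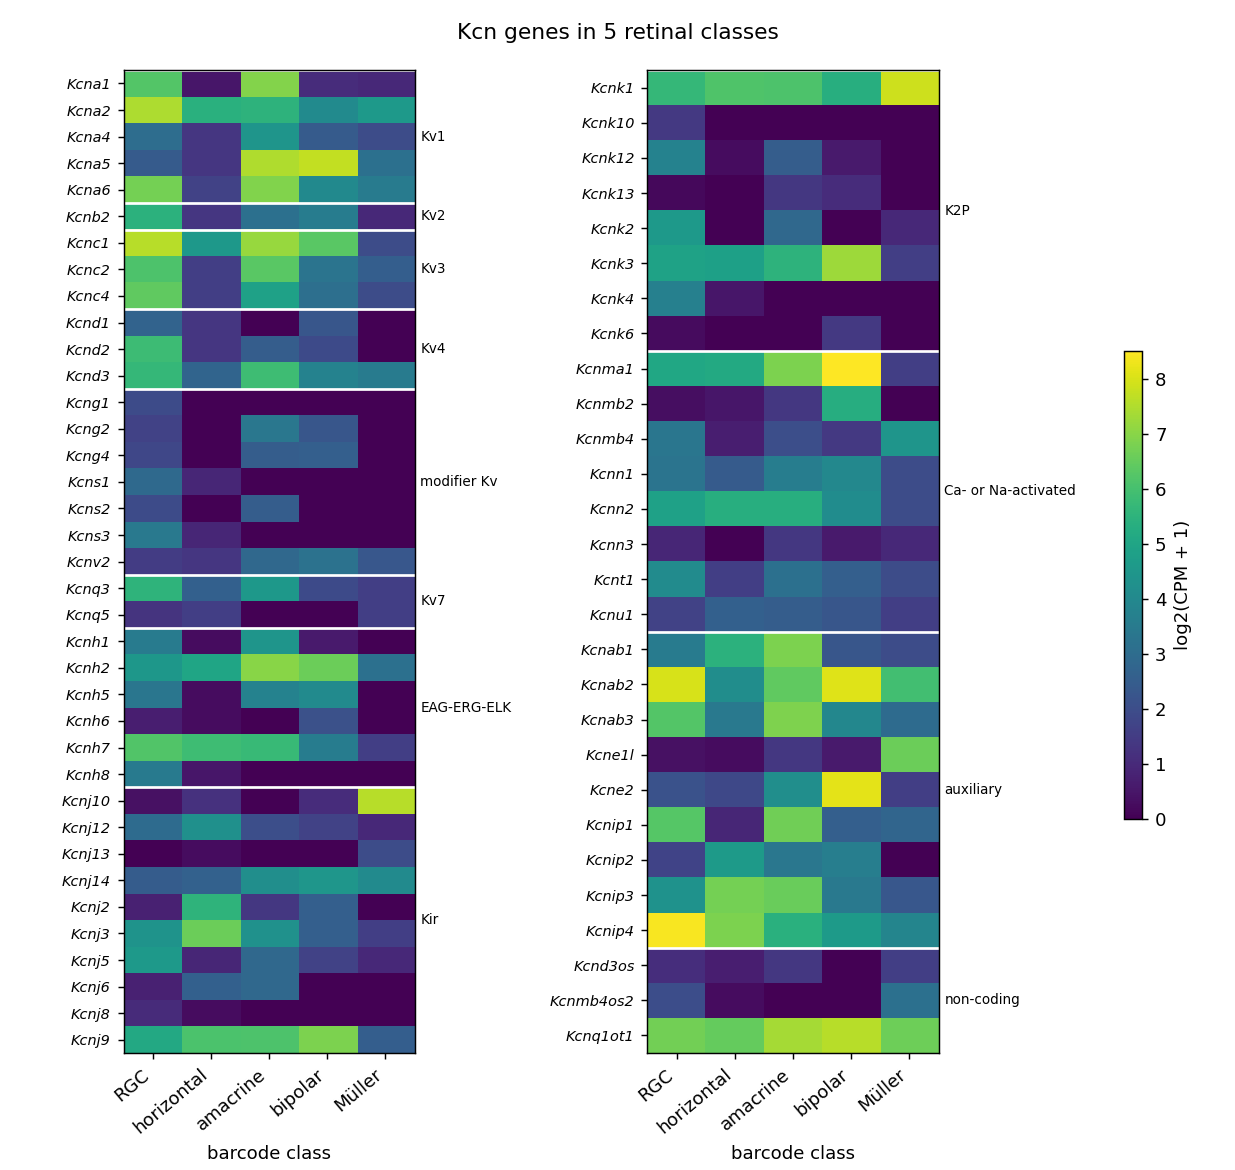
Level of 65 of the 69 Kcn genes (rows, grouped by family with white lines) in the 5 barcode classes (columns), coloured by log2(CPM + 1). Kcnip4 and Kcnc1 are bright in the RGC column at 337 and 190 CPM, and Kcnj10 is bright in the Müller column alone at 191 CPM.

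Of the 69 genes, 11 were highest in RGC barcodes by 2-fold or more over the next class (2.88% of all features), 2 in horizontal (1.98%), 2 in amacrine (1.32%), 4 in bipolar (2.89%) and 4 in Müller barcodes (7.5%). The 11 RGC genes included Kcnd2, Kcna2, Kcnk4, Kcnb2, Kcnip4, Kcnh8, Kcnc4, Kcns3, Kcnk2 and Kcnj5. With a class of no UMI set to 3 UMIs, Kcnk4, Kcnh8 and Kcns3 stood 1.76-, 1.58- and 1.52-fold above the next class, which left 8 RGC and 3 Müller genes past 2-fold. The horizontal pair was Kcnj2 and Kcnj3, the amacrine pair Kcnab1 and Kcna4, the bipolar genes Kcne2, Kcnmb2, Kcnk3 and Kcnma1, and the Müller genes included Kcnj10, Kcne1l and Kcnk1. The single highest Kcn gene was Kcnip4 in RGC and horizontal barcodes, Kcna5 in amacrine, Kcnma1 in bipolar and Kcnk1 in Müller barcodes. Counts from 3′ ends are not divided by gene length, so levels are best compared between classes for 1 gene, and the order of genes within a class is approximate.

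The start regions of 5 genes are shown because these genes set a class apart in the values below: Kcnd2 for RGC, Kcnj2 for horizontal, Kcna5 for amacrine and bipolar, Kcnmb2 for bipolar and Kcnj10 for Müller barcodes. They were chosen after their values were seen. Each sequence is the 250 bases before the gene start in RefSeq's promoter table (GRCm38.p6), read 5′ to 3′ on the gene's own strand, and capitals mark the 1 motif match.
Kcnd2, chr6:21215096-21215345, plus strand: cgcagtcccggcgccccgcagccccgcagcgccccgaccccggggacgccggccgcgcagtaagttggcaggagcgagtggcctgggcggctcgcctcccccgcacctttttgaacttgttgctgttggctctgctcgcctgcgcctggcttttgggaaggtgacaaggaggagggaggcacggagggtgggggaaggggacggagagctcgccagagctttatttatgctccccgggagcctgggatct
Kcnj2, chr11:111065914-111066163, plus strand: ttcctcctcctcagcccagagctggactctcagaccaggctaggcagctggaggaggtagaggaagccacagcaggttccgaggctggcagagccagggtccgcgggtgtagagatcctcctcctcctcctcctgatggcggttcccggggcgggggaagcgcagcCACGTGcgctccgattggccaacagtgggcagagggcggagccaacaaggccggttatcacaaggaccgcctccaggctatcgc
Kcna5, chr6:126535556-126535805, minus strand: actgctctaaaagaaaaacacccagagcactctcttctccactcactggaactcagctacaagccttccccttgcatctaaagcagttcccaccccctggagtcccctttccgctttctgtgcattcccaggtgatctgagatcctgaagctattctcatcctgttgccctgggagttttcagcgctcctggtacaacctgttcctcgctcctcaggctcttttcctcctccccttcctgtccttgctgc
Kcnmb2, chr3:31902453-31902702, plus strand: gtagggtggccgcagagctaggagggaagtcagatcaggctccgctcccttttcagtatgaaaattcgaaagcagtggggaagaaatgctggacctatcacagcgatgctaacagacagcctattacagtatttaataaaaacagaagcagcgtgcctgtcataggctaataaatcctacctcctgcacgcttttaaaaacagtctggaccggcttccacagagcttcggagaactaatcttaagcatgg
Kcnj10, chr1:172340960-172341209, plus strand: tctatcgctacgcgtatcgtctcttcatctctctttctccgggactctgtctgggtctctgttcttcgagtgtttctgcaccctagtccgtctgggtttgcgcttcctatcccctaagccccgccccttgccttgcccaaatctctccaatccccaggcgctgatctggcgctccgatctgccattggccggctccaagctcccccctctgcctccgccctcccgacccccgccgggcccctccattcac
Both strands were searched for TAATCC (a photoreceptor and bipolar homeobox core), ATNATTAAT (a POU4-type site), TATAAA and CACGTG (an E-box), and only Kcnj2 held a match, CACGTG, which reads the same on both strands. Of all 32851 promoter windows of this length, 6.25% held TAATCC, 0.935% ATNATTAAT, 12.4% TATAAA and 6.02% CACGTG. Of 71 windows listed for 50 of the 69 genes, 1 held TAATCC, none ATNATTAAT, 2 TATAAA and 3 CACGTG. The windows differed in base composition, from 68.8% G or C with 22 CG pairs for Kcnd2 to 53.2% with 3 pairs for Kcna5 and 47.2% with 8 pairs for Kcnmb2. Kcnj10 had 62% with 17 pairs and Kcnj2 65.6% with 14. The median over the members' windows was 60% and 8 pairs, and over all windows 52.4% and 6 pairs.

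Kcnd2, which encodes the A-type channel Kv4.2 that delays firing, separated RGC barcodes from every other class by the widest margin of the 11. Its level was 55.8 CPM in RGC barcodes (52.1 to 59.6), against 1.53 in horizontal (0.615 to 3.15), 4.72 in amacrine (0.974 to 13.8), 2.74 in bipolar (0.889 to 6.39) and 0 of 1025784 UMIs in Müller barcodes. The ratio was 36.5 over horizontal (17.6 to 90.99), 11.8 over amacrine on 3 UMIs (4.03 to 57.4) and 20.4 over bipolar (8.70 to 62.9), and at least 19.1-fold higher than in Müller barcodes, taking 3 UMIs over that class as the floor. With barcodes that met more than 1 class rule kept, the log2 ratio of (CPM + 5) of Kcnd2 for RGC over bipolar barcodes was 1.40, and without them 2.97. Kcnd3, for the related Kv4.3, was not particular to RGCs, with 49.8 CPM in RGC, 5.68 in horizontal, 56.7 in amacrine, 12.6 in bipolar and 10.7 in Müller barcodes. Kcnip4, for the calcium-binding Kv4 partner KChIP4, was the most abundant Kcn RNA at 337 CPM in RGC barcodes (328 to 347), against 113 in horizontal, 40.9 in amacrine, 23.5 in bipolar and 13.7 in Müller barcodes. Kcnip1, for KChIP1, had 76.2 CPM in RGC barcodes and 99.2 in amacrine barcodes, but 0.874 in horizontal barcodes, a ratio of RGC over horizontal of 87.2 (34.0 to 320).

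To hold depth equal, each barcode was thinned to 3000 UMIs. A Kcnd2 UMI was then seen in 13.7% of RGC barcodes (11.5% to 16.1%), against 0.491% of horizontal, 0 of 108 amacrine, 0.285% of bipolar and 0 of 208 Müller barcodes; without thinning the shares were 42.3%, 1.72%, 2.78%, 1.43% and 0. Kcnip4 was seen in 52.2% of RGC barcodes, against 27.3% of horizontal, 8.33% of amacrine, 5.98% of bipolar and 5.29% of Müller barcodes at 3000 UMIs.

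Kv1 genes, whose channels sit along axons and near the spike-initiation zone, were high in RGC barcodes with 2 different patterns. Kcna2 (Kv1.2) had 173 CPM in RGC barcodes (166 to 180), against 40.6 in horizontal, 44.1 in amacrine, 15.9 in bipolar and 23.4 in Müller barcodes. Kcna1 (Kv1.1) had 73.8 CPM in RGC barcodes, against 0.437 in horizontal (2 UMIs), 120 in amacrine, 1.09 in bipolar (2 UMIs) and 0.975 in Müller barcodes (1 UMI). Kcna6 (Kv1.6) followed Kcna1, with 106 CPM in RGC, 2.18 in horizontal, 117 in amacrine, 15.3 in bipolar and 10.7 in Müller barcodes. The intervals of Kcna6 overlap between RGC (101 to 111) and amacrine barcodes (91.5 to 146). In barcodes thinned to 12000 UMIs, Kcna1 was seen in 50.1% of 735 RGC and 0.714% of 140 horizontal barcodes, and Kcna2 in 81.2% and 35.7%.

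Kcna5 (Kv1.5) took the opposite course. It had 4.45 CPM in RGC barcodes (3.47 to 5.62) and 1.53 in horizontal, against 179 in amacrine (148 to 215), 211 in bipolar (190 to 233) and 7.80 in Müller barcodes. At 3000 UMIs it was seen in 1.18% of RGC and 0.246% of horizontal barcodes, against 39.8% of amacrine and 50.7% of bipolar barcodes. The 6 bipolar markers that no class rule used summed to 238 CPM in RGC, 205 CPM in amacrine and 5820 CPM in bipolar barcodes. The part of bipolar RNA in the amacrine level of Kcna5 was not tested. Kcna5, Kcna1 and Kcna6 lie in a row on chromosome 6, with 104985 bases between Kcna5 and Kcna1 and 61945 between Kcna1 and Kcna6 (GRCm38), so these differing levels come from neighbouring genes.

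The beta subunits that bind Kv1 channels divided the classes as well. Kcnab2 had 255 CPM in RGC barcodes, against 16.8 in horizontal, 84.99 in amacrine, 268 in bipolar and 60.4 in Müller barcodes, and the RGC (247 to 263) and bipolar (245 to 293) intervals overlap. Kcnab3 had 73.4 CPM in RGC and 115 in amacrine barcodes and at most 14.2 in the other 3 classes. Kcnab1 had 10.6 CPM in RGC barcodes, against 42.6 in horizontal and 112 in amacrine barcodes, with 3.83 in bipolar and 2.92 in Müller barcodes. At 12000 UMIs Kcnab2 was seen in 683 of 735 RGC and 28 of 140 horizontal barcodes, and Kcnab1 in 71 of 735 RGC and 56 of 140 horizontal barcodes.

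Kv3 genes, whose channels let neurons fire fast, were abundant in RGC barcodes. Kcnc1 (Kv3.1) had 190 CPM in RGC barcodes (184 to 197), against 22.1 in horizontal, 143 in amacrine, 79.9 in bipolar and 2.92 in Müller barcodes. Kcnc4 (Kv3.4) had 84.96 CPM in RGC barcodes, against 1.97, 28.3, 7.66 and 2.92 CPM in horizontal, amacrine, bipolar and Müller barcodes. Its call against bipolar barcodes ended with a mitochondrial maximum of 5%, where 9 bipolar barcodes were left and the log2 ratio of (CPM + 5) was 0.82, against 2.83 above. Kcnc2 (Kv3.2) did not part RGC from amacrine barcodes, with 69.4 (65.3 to 73.6) and 78.7 CPM (58.4 to 104), and was at 1.97 CPM in horizontal barcodes. Horizontal barcodes held 9 UMIs each of Kcnc2 and Kcnc4.

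Outside the Kv1, Kv3 and Kv4 families, Kcnq3, a subunit of the M-current that damps repetitive firing, had 44.7 CPM in RGC barcodes, against 5.02 in horizontal, 22.03 in amacrine, 2.74 in bipolar and 1.95 in Müller barcodes. Kcnb2 (Kv2.2, a delayed rectifier) had 42.6 CPM in RGC barcodes and 10.95 or less elsewhere. Kcnh7 had 72.5 CPM in RGC, 57.0 in horizontal and 51.9 in amacrine barcodes, against 10.95 in bipolar and 1.95 in Müller barcodes. Kcnh2, also of the ERG type, had 21.4 CPM in RGC barcodes, against 126 in amacrine and 94.7 in bipolar barcodes. The long non-coding Kcnq1ot1 was present in every class, at 102 CPM in RGC, 89.8 in horizontal, 164 in amacrine, 191 in bipolar and 96.5 in Müller barcodes.

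Horizontal barcodes were marked by inward rectifiers. Kcnj2 (Kir2.1, a strong rectifier that holds the resting potential) had 0.700 CPM in RGC barcodes (0.349 to 1.25), against 45.0 in horizontal barcodes (39.1 to 51.6), a level 64.3 times as high (35.2 to 131). At 3000 UMIs it was seen in 0 of 929 RGC barcodes (exact upper bound 0.396%, for a UMI at that depth) and in 13.8% of horizontal barcodes; without thinning the shares were 0.969% and 39.6%. Kcnj3 (GIRK1, opened by G proteins) had 19.5 CPM in RGC and 95.2 in horizontal barcodes, and 18.9 or less in the other 3 classes. The calcium sensors Kcnip3 and Kcnip2 were also lower in RGC than in horizontal barcodes, with 19.1 and 104.6 CPM for Kcnip3 and 2.29 and 23.8 CPM for Kcnip2. Kcnip3 was not particular to horizontal barcodes, with 92.9 CPM in amacrine barcodes (70.7 to 119.8), where the interval overlaps that of horizontal barcodes (95.5 to 114.4). Horizontal barcodes thus combined high Kcnip3 and Kcnip4 (104.6 and 112.5 CPM) with little RNA of the Kv4 genes, which together had 111 CPM in RGC barcodes and 8.74 in horizontal barcodes. The Müller marker list stood at 378 CPM in RGC and 2539 in horizontal barcodes, of which Vim alone gave 2102 in horizontal barcodes. Without Vim the list stood at 350 CPM in RGC and 438 CPM in horizontal barcodes. Glul (114 CPM in RGC and 279 in horizontal barcodes), Aqp4 (1.72 and 3.93) and Rlbp1 (8.71 and 9.83) were higher in horizontal barcodes. Slc1a3, Sox9, Dkk3 and Apoe were no higher in horizontal than in RGC barcodes. The Müller gene Kcnj10 was at 0.318 CPM in RGC and 1.31 CPM in horizontal barcodes. The part of Müller RNA in the horizontal levels was not tested.

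**Figure D3:**
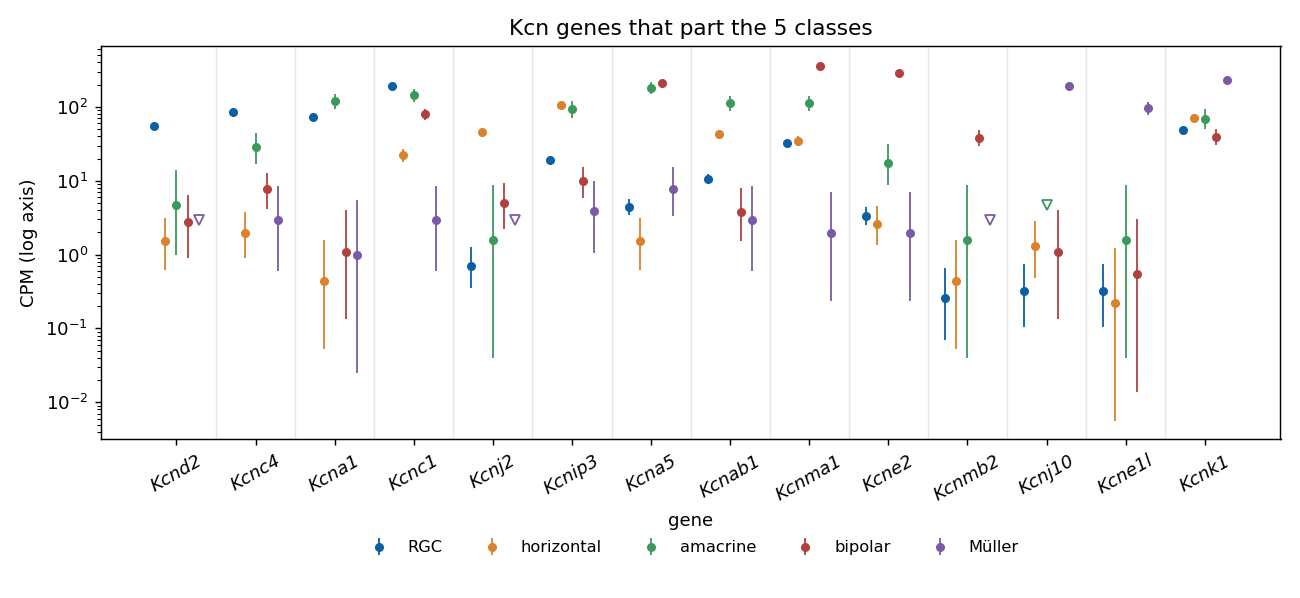
Levels (CPM, log axis) of 14 Kcn genes in the 5 barcode classes, with exact 95% Poisson intervals as vertical lines. Open triangles stand at the level of 3 UMIs over a class where no UMI was counted, as for Kcnd2 in Müller barcodes, and Kcnd2 is at 55.8 CPM in RGC barcodes with every other class at 4.72 CPM or less.

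Bipolar barcodes stood apart by Kcnma1 and Kcnmb2, of the large-conductance calcium-activated (BK) channel, and by Kcne2 and Kcnk3. The class was chosen by Trpm1 and Pcp2, so bipolar cells low in either gene are not covered by these values. Kcnma1, the BK pore subunit, had 32.6 CPM in RGC and 34.7 in horizontal barcodes, against 112 in amacrine, 355 in bipolar (328 to 383) and 1.95 in Müller barcodes. Kcnmb2, an inactivating BK beta subunit, had 0.254 CPM in RGC barcodes (4 UMIs), against 38.3 in bipolar barcodes (29.9 to 48.4). Kcnmb4, another BK beta subunit, went the other way, with 9.16 CPM in RGC and 1.64 in bipolar barcodes, and its highest class was Müller barcodes. Kcne2, a small auxiliary subunit, had 3.37 CPM in RGC and 284 in bipolar barcodes, 84.1 times as high in bipolar barcodes (63.3 to 114). Kcne2 was seen in 1.18% of RGC and 56.4% of bipolar barcodes at 3000 UMIs, and in 5.06% and 73.8% without thinning, at median depths of 15815 and 4411 UMIs. Kcnk3 (TASK-1, an acid-sensitive leak channel) had 29.0 CPM in RGC and 153 in bipolar barcodes. Kcnj9 (GIRK3) had 33.8 CPM in RGC, 66.8 in horizontal, 69.25 in amacrine and 113 in bipolar barcodes. Its bipolar level was 1.59-fold over the next class by (CPM + 5), under the 2-fold rule. The direction of Kcnj9 for RGC over bipolar barcodes turned with a mitochondrial maximum of 5%, which left 9 bipolar barcodes.

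The cone marker list stood at 135 CPM in RGC, 1659 in amacrine and 1052 CPM in bipolar barcodes. Without Arr3 it stood at 118, 1552 and 979 CPM in them, against 52239 CPM in 95 barcodes outside the classes that were chosen for Arr3. Kcne2 was at 641 CPM in those cone barcodes, where the rod list stood at 18603 CPM. The part of cone RNA in the bipolar level of Kcne2 was not tested. In amacrine barcodes, where the cone list was highest of the 5 classes, Kcne2 had 17.3 CPM, of which 63.6% came from 1 barcode, and 6.40 CPM without it, so the call against amacrine barcodes rests on it. With barcodes called doublets left out, the log2 ratio of (CPM + 5) of Kcne2 for RGC over amacrine barcodes was -0.33, and with them -1.41.

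Müller barcodes were set apart by Kcnj10 (Kir4.1, the glial rectifier of potassium buffering). Its level was 0.318 CPM in RGC barcodes (0.103 to 0.742), 1.31 in horizontal, 0 in amacrine and 1.09 in bipolar, against 191 CPM in Müller barcodes (165 to 220). At 3000 UMIs it was seen in 0.215% of RGC and 45.2% of Müller barcodes (38.3% to 52.2%), and in 0.538% and 58.7% without thinning. Kcne1l, an auxiliary subunit now named Kcne5, had 0.318 CPM in RGC and 95.5 in Müller barcodes, and 1.57 or less in the other 3 classes. Kcnk1 (TWIK-1, a leak channel) had 49.0 CPM in RGC, 70.6 in horizontal, 69.2 in amacrine and 39.4 in bipolar barcodes, against 231 in Müller barcodes (203 to 262). Kcnj14 (Kir2.4) had 4.51 CPM in RGC and 15.6 in Müller barcodes, a direction that turned with a mitochondrial maximum of 5%, which left 32 Müller barcodes. Kcnj9 and Kcnj10 are neighbours on chromosome 1 with 11.9 kb between them, and Kcnj9 had 33.8 CPM in RGC and 4.87 CPM in Müller barcodes. The endothelial marker list stood at 10.8 CPM in RGC and 919 CPM in Müller barcodes, and the pericyte list at 6.11 and 104 CPM. The Müller sums came from Kdr (502 CPM), Flt1 (412), Pdgfrb (71.2) and Rgs5 (33.2), while Kcnj8 and Cspg4 had no UMI there and Cldn5 had 4.58 CPM in RGC and 2.93 in Müller barcodes.

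A set of 32 other genes of potassium channel complexes and their neighbours was taken beside the Kcn genes, of which 30 were measured. Of these, 13 were higher and none lower in RGC than in horizontal barcodes, 10 and 0 against amacrine, 12 and 1 against bipolar, and 20 and 1 against Müller barcodes, by the same rule and beside the same backgrounds. Lrrc55 was called against amacrine and Müller barcodes on 0 UMIs in them, and with 3 UMIs in that place 9 and 19 were higher. Dpp10, a transmembrane partner of Kv4 channels, had 44.8 CPM in RGC barcodes, against 0.874 in horizontal, 15.7 in amacrine, 2.19 in bipolar and 2.92 in Müller barcodes. Dpp6, the other such partner, had 50.8 CPM in RGC barcodes, against 91.7 in horizontal, 99.2 in amacrine, 67.3 in bipolar and 7.80 in Müller barcodes. Lgi1, a secreted protein of Kv1 complexes, had 45.0 CPM in RGC barcodes and at most 3.15 in the other classes. Gabbr2, a GABA-B receptor subunit whose receptor opens GIRK channels, had 137 CPM in RGC and 7.21 in horizontal barcodes, the class in which Kcnj3 was highest. Ank3, which anchors Kv7 channels at the axon initial segment, had 354 CPM in RGC, 104 in horizontal, 178 in amacrine, 344 in bipolar and 159 in Müller barcodes, and was called against horizontal and Müller barcodes only.

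RGC barcodes also differed among themselves. They were cut into 4 subsets by the UMIs of 1 gene each, Spp1 (32 barcodes), Pvalb (133), Foxp2 (97) and Cartpt (166), and each was compared with all other RGC barcodes. Spp1 is known from alpha RGCs, Foxp2 from F-RGCs and Cartpt from ON-OFF direction-selective RGCs. The subsets overlapped, with 8 barcodes in both the Spp1 and Pvalb subsets, 12 in Pvalb and Foxp2 and 21 in Pvalb and Cartpt, and 544 RGC barcodes were in none. Depth differed, with a median of 26504 UMIs in the Spp1 subset and 15546 in other RGC barcodes, and 23158 and 15142 for the Pvalb subset. Of the alpha RGC list, which holds Spp1 and the members Kcns3 and Kcnip2, the other 2 genes were Nefh, with 181 CPM in the Spp1 subset and 100.4 in other RGC barcodes, and Chrm2, with 5.69 and 8.96 CPM. The melanopsin RGC list stood at 504 CPM in the Spp1 subset and 78.9 in other RGC barcodes.

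By the same 2-fold rule, 6 Kcn genes were higher and 3 lower in the Spp1 subset (1.36% and 1.72% of all features), and 3 higher and 2 lower in the Pvalb subset (0.421% and 0.757%). In the Foxp2 subset 4 were higher and 4 lower (0.336% and 1.26%), and in the Cartpt subset 1 was higher and 4 lower (0.336% and 0.638%). Kcnc1, Kcnc2, Kcnc4 and Kcnq3 were called by this rule in none of the 4 subsets. With 1 CPM in place of 5, the counts in the same order were 10 and 8, 6 and 6, 5 and 9, and 1 and 10.

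In the Spp1 subset the clearest gene was Kcng4, whose Kv6.4 protein forms no channel alone and modifies Kv2 channels. It had 22.7 CPM (13.9 to 35.1) in the Spp1 subset and 1.28 CPM (0.771 to 2.00) in other RGC barcodes, a ratio of 17.8 (9.002 to 35.2) on 20 and 19 UMIs. At 12000 UMIs it was seen in 18.8% of the Spp1 subset (7.21% to 36.4%), against 2.18% of all RGC and 0 of 140 horizontal barcodes. Kcnab3 had 213 CPM in the Spp1 subset and 65.2 in other RGC barcodes, and Kcnma1 73.9 and 30.1 CPM. Kcnmb4, the BK beta subunit named above, had 28.4 and 8.02 CPM, and Kcnk1 100.1 and 46.0 CPM, in the Spp1 subset and other RGC barcodes. Kcns3, another modifier of Kv2 channels, had 25.0 CPM in the Spp1 subset and 8.89 in other RGC barcodes, and it is itself on the alpha RGC list. Kcnh8, of the ELK type, had 0 UMIs in the Spp1 subset, against 10.98 CPM in other RGC barcodes, so that it was at least 3.22-fold lower in the subset. Among the other complex genes, Lgi2 had 85.3 CPM in the Spp1 subset and 31.7 in other RGC barcodes, while Lgi1 had 11.4 and 47.0 CPM.

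In the Pvalb subset Kcns3 had 24.1 CPM, against 6.20 in other RGC barcodes, a ratio of 3.88 (2.80 to 5.40). Kcnab1 had 24.7 and 7.08 CPM, and Kcnip1 131 and 62.4 CPM, in the Pvalb subset and other RGC barcodes. Kcnip3 was lower, with 3.81 CPM in the Pvalb subset and 22.9 in other RGC barcodes, and so was Kcnk2 (TREK-1, a leak channel opened by stretch and lipids), with 9.51 and 26.3 CPM.

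**Figure D4:**
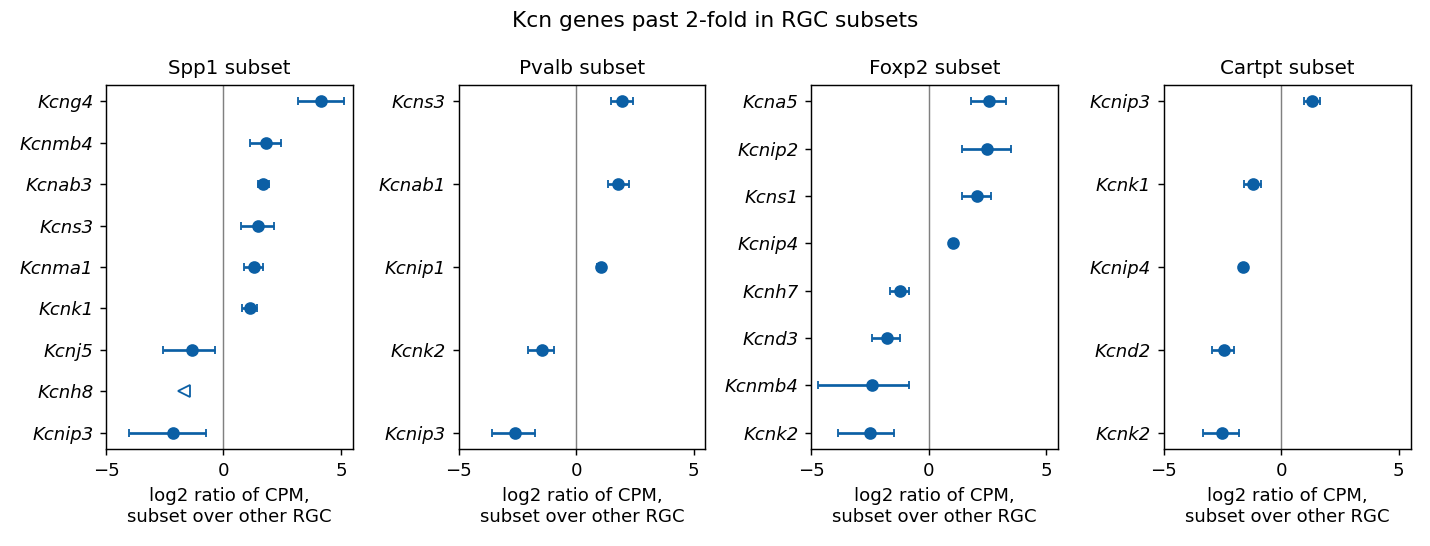
Kcn genes past the 2-fold rule in the 4 RGC subsets, as the log2 ratio of CPM in the subset over other RGC barcodes, with exact 95% intervals as horizontal bars. The open triangle is an upper bound for Kcnh8, which had 0 UMIs in the Spp1 subset, and Kcng4 stands farthest right at a ratio of 17.8.

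The Foxp2 subset held the most Kcnip4, at 627 CPM (589 to 667), against 305 CPM in other RGC barcodes (296 to 314). Kcna5, low in RGC barcodes as a class, had 17.5 CPM in the Foxp2 subset and 2.97 in other RGC barcodes, with 21.4% of its subset UMIs from 1 barcode. Kcns1, a Kv2 modifier, had 20.6 and 4.96 CPM, and Kcnip2 8.75 and 1.56 CPM on 14 and 22 UMIs. Kcnd3 was lower, with 15.6 CPM in the Foxp2 subset and 53.7 in other RGC barcodes, as were Kcnk2, with 4.38 and 25.0 CPM, and Kcnh7, with 33.1 and 77.0 CPM. Kcnmb4 had 1.88 CPM in the Foxp2 subset on 3 UMIs, against 9.98 CPM in other RGC barcodes, a ratio of 0.188 (0.0383 to 0.560).

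The Cartpt subset had the reverse for Kcnip4, with 128 CPM (116 to 140), against 394 in other RGC barcodes (383 to 405). Kcnd2 had 12.3 CPM in the Cartpt subset (8.84 to 16.7), against 67.4 in other RGC barcodes (62.9 to 72.2), a ratio of 0.183 (0.130 to 0.250). Kcnip3 was the 1 gene called higher, with 36.1 CPM in the Cartpt subset and 14.5 in other RGC barcodes. Kcnk2 had 4.81 and 27.8 CPM, and Kcnk1 24.0 and 55.7 CPM, in the Cartpt subset and other RGC barcodes. The Cartpt call for Kcnip3 was lost with a mitochondrial maximum of 5%, and also against the RGC barcodes without any Cartpt UMI, of which there were 138.

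The Kv4 channel genes and their KChIP partners thus had a different mixture in each subset. At 12000 UMIs, Kcnd2 was seen in 28.1% of 32 Spp1, 41.6% of 125 Pvalb, 63.2% of 87 Foxp2 and 11.3% of 151 Cartpt barcodes, and in 40.8% of 380 RGC barcodes of no subset. Kcnd3 was seen in 9.38%, 48.0%, 17.2%, 48.3% and 36.3% of the same groups in that order. Kcnip4 was seen in 98.9% of Foxp2 barcodes (93.8% to 99.97%) and 49.0% of Cartpt barcodes (40.8% to 57.3%). Kcnip1 was seen in 75.0% of Spp1 and 73.6% of Pvalb barcodes, and in 37.4% of RGC barcodes of no subset. Kcnip3 was seen in 35.8% of Cartpt barcodes and in 6.90% or less of the Spp1, Pvalb and Foxp2 barcodes. In horizontal barcodes at the same depth the shares were 1.43% for Kcnd2, 7 of 140 barcodes for Kcnd3 and 0.714% for Kcnip1.

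**Figure D5:**
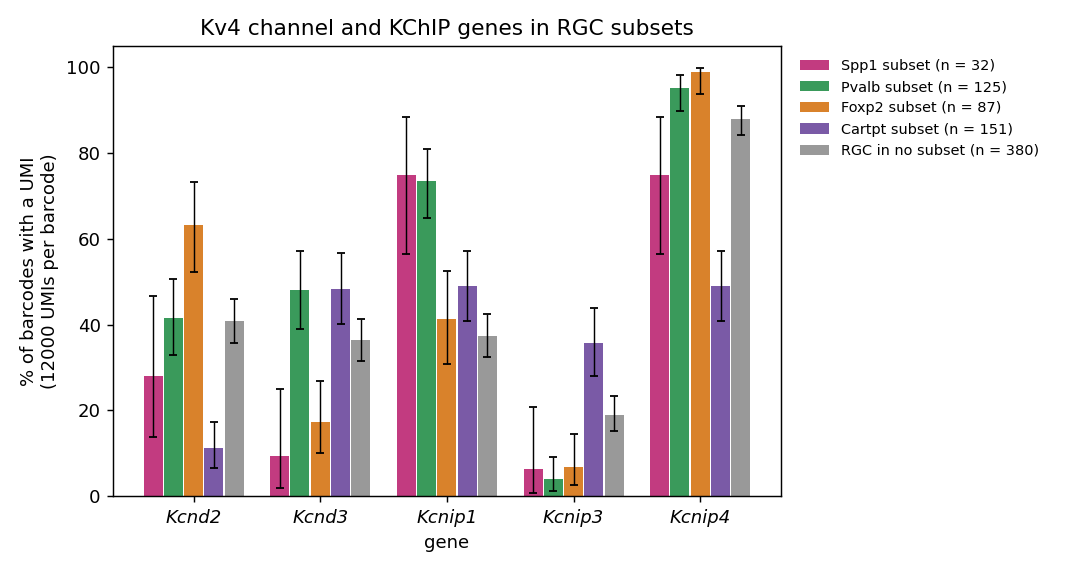
Share of barcodes with a UMI (%, vertical axis) of the Kv4 genes Kcnd2 and Kcnd3 and the KChIP genes Kcnip1, Kcnip3 and Kcnip4 after thinning to 12000 UMIs, in 4 RGC subsets and the RGC barcodes of no subset, with exact 95% binomial intervals. Kcnd2 is highest in the Foxp2 subset at 63.2% and lowest in the Cartpt subset at 11.3%, while Kcnd3 is at 17.2% and 48.3% in them.

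Spread within the RGC class was measured by the Fano factor (variance over mean) of UMIs in the 735 RGC barcodes thinned to 12000 UMIs. Over 6900 features with a mean of 0.2 or more, its median was 1.06. Kcnip4 had 3.60, Kcnd2 2.53 and Kcnk2 2.32, at the 98.4, 97.2 and 96.9 percentiles of those features. Their means were 4.12, 0.716 and 0.271 UMIs. The percentiles are not matched on the mean, so spread and abundance are not separated in this ranking. Kcna6 followed with 1.79 and Kcnab3 with 1.66. Kcnh2 and Kcnj5 had 1.05 each, near the median, at means of 0.264 and 0.265 UMIs.

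Kcnd2 and Kcnip4 were found together in single RGC barcodes. Kcnip4 was seen in 96.0% of 276 barcodes with Kcnd2 (93.0% to 98.0%), against 73.6% of 459 without (69.4% to 77.6%), and its mean was 6.18 against 2.89 UMIs. Spearman's rho over the 735 barcodes was 0.46, and among those 6900 features Kcnip4 was the one most like Kcnd2, ahead of Pcdh7 (0.35) and Tusc5 (0.33). Seen from Kcnip4, Kcnd2 came after Gm12027 (0.47) and before Tusc5 (0.41). The least alike for Kcnip4 were Dkk3 (-0.46) and Mgarp (-0.43). The barcodes share libraries and were thinned to 1 depth, and these values describe 1 pooled sample.

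Other pairs were weaker or of the other sign. Kcnd3 was seen in 30.1% of barcodes with Kcnd2 (24.7% to 35.9%) and in 42.3% of those without (37.7% to 46.9%), and Kcnip3 in 12.3% and 22.4%. Kcnip1 was seen in 44.6% of barcodes with Kcnd2 and 48.4% of those without, with overlapping intervals. Kcna6 was seen in 71.2% of barcodes with Kcna1 (66.3% to 75.8%) and in 58.9% of those without (53.6% to 63.9%). Kcnd2 was seen in 24.8% of barcodes with Kcnk2 (17.1% to 33.8%) and in 39.9% of those without (36.0% to 43.8%).

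Exons of 24 of the 69 genes overlap an annotated gene on the other strand, among them Kcnip4, Kcnk2, Kcnk1 and Kcnma1, and exons of Kcnab2 and Kcnk4 overlap a gene on the same strand. Kcnd3os and Kcnmb4os2 run antisense to Kcnd3 and Kcnmb4. Whether the authors' counting used strand is not given in the sources used here, so reads of such pairs may not be separable. Kcnmb4os2 had 2.99 CPM in RGC barcodes, where Kcnmb4 had 9.16, and 7.80 CPM in Müller barcodes, where Kcnmb4 had 20.5.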

How the data were processed

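Per the submitters' processing notes, Cell Ranger (no version named), Seurat 2.2 and the mouse build mm10 were used. The deposited values are raw counts of UMIs per feature and barcode, from the 10x Chromium 3′ V2 kit per the labels' protocols. How cells were called, and whether counting used strand, is not stated there. All 3237 barcode names are distinct and carry 1 suffix, so the 4 retinas were treated as 1 pooled sample, with no test between groups.

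Barcodes with 500 or more genes and under 10% mitochondrial UMIs were kept (2699 of 3237). Of the 538 removed, 536 were at or over the mitochondrial maximum. RGC barcodes needed Slc17a6 of 1 or more, Rbpms plus Slc17a6 of 3 or more and Lhx1 of 1 or less. Horizontal barcodes needed Lhx1 of 2 or more and no Slc17a6, bipolar barcodes Trpm1 of 2 and Pcp2 of 3 or more, and Müller barcodes Rlbp1 of 3 and Slc1a3 of 3 or more. No thresholds were given for amacrine barcodes, and the rule used was Slc32a1 of 1 or more, Gad1, Gad2 and Slc6a9 together of 2 or more, no Slc17a6 or Lhx1, Trpm1 of 1 or less and Rlbp1 of 2 or less. The 27 barcodes that met more than 1 rule were left out. RGC subsets needed Spp1 of 3, Pvalb of 15, Foxp2 of 2 or Cartpt of 20 UMIs or more. Scrublet, as run in scanpy 1.11.5, called 63 barcodes doublets, which were kept in the values given.

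UMIs were summed per class and scaled to CPM, with exact Poisson intervals, exact conditional intervals for ratios and Clopper-Pearson intervals for shares, all at 95%. Calls used 5 CPM added and a fold of 2. They were tried on simulated Poisson counts for the class comparisons only, with changes larger than 2-fold in genes above a minimum level. That trial did not cover extra spread between barcodes, changes near 2-fold, changes in genes at low levels or the RGC subsets. In calls a side with no UMI stood at 0 CPM. Where a fold is given as a bound, it was replaced by a floor of 3 counts, and calls remade with that floor are given too. Shares were compared after thinning to 3000 or 12000 UMIs per barcode. The thinning to 12000 left out 194 RGC and 267 horizontal barcodes. Genes named were the 12 with most UMIs in RGC barcodes, the highest of each class, and for each comparison up to 8 each way by ratio among called genes with 30 or more UMIs. Further genes of the same families were named after their values were seen, as were the pairs seen together and the features most like Kcnip4, Kcnd2 and Kcnk2. Results for some genes are not reported here. Members and lists were chosen with earlier results of these data known. All 69 identifiers matched GENCODE M21 (GRCm38, the same assembly as mm10). Sums and intervals were computed with scipy 1.17.1 and numpy 2.4.6 in Python 3.11.15. Tables were handled with pandas 2.3.3 and anndata 0.12.19, and plots made with matplotlib 3.10.9.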

Additional observations from a re-analysis of the deposited data

Results flagged for a closer look

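Several Kcn genes were highest in barcodes that none of the 5 classes hold and that no comparison above uses. The 696 such barcodes were divided after the data were seen into cone barcodes with 5 or more UMIs of Arr3 (95), microglia barcodes with 5 or more of C1qa and 1 or more of Csf1r (149) and all others (453), with 1 barcode in both of the first groups. Genes given here are among those where a gene held 20 or more UMIs in such a group at a level at least 2-fold that of its highest class. Without the genes that chose these barcodes, the cone marker list stood at 52239 CPM in the cone barcodes and 118 in RGC barcodes, and the microglia list at 22938 CPM in the microglia barcodes and 88.5 in RGC barcodes.

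In cone barcodes Kcne2 had 641 CPM (566 to 723), against 284 in bipolar barcodes, its highest class. Kcnv2, whose Kv8.2 subunit modifies other Kv channels in photoreceptors and whose loss in humans causes a cone dystrophy, had 90.1 CPM (63.5 to 124) in cone barcodes, against 8.21 in bipolar barcodes. It also had 19.1 CPM in the other barcodes. The rod list stood at 5937 CPM in the other barcodes and at 18603 CPM in the cone barcodes. The part of rod RNA in the levels of the cone barcodes was not tested. Kcnj14 had 82.8 CPM (57.4 to 116) in cone barcodes, against 21.3 in bipolar barcodes. Kcnj14 was not particular to cone barcodes, with 40.35 CPM (34.26 to 47.2) in the other barcodes and 25.34 CPM (14.48 to 41.15) in microglia barcodes.

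In microglia barcodes Kcnk13 (THIK-1, a leak channel of microglia) had 68.1 CPM (49.3 to 91.7), against 1.57 in amacrine barcodes. Kcnk6 had 45.9 CPM (30.8 to 66.0) in microglia barcodes, against 1.64 in bipolar barcodes. The microglia barcodes held 43 of the 56 UMIs of Kcnk13 over all barcodes, and 29 of the 36 UMIs of Kcnk6. Without those UMIs neither gene would reach the minimum set for a Kcn gene, so both entered the list through this group. Kcnj8, known from pericytes, had 7.24 CPM (4.81 to 10.5) in the other barcodes, against 1.08 in RGC barcodes. In each group 1 barcode held many of its UMIs, 35.7% in the other and 52.9% in RGC barcodes, and without that barcode the levels were 4.67 and 0.509 CPM. The pericyte list, which includes Kcnj8, stood at 89.0 CPM in the other barcodes and at 0 in the cone and microglia barcodes.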

How the results depend on the processing

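Of 174 alternative values for the 18 counts and medians of the Kcn genes, 155 stayed within 1.5 times of the value given above. Of 893 alternative log2 ratios for the 85 named gene and comparison pairs, 850 kept their direction and stayed within the counting interval of the gene's ratio. That interval is wide for genes on few UMIs, and 2-fold each way was used where a side had no UMI. The 893 include settings that changed only the minimum UMIs of a Kcn gene, which could not move these ratios. The floor of 3 UMIs could move only ratios with a side of no UMI. Adding 1 CPM in place of 5 gave 22 genes higher and 15 lower in RGC than in amacrine barcodes, 8 lower than in Müller barcodes, 10 higher and 8 lower in the Spp1 subset, 6 and 6 in the Pvalb subset, 9 lower in the Foxp2 subset and 10 lower in the Cartpt subset. With a mitochondrial maximum of 5%, 6 genes were higher and 1 lower in the Pvalb subset and 0 higher in the Cartpt subset. That setting left 732 RGC, 34 horizontal, 81 amacrine, 9 bipolar and 32 Müller barcodes, and turned the log2 ratio of (CPM + 5) of Kcnj9 for RGC over bipolar barcodes to 0.15 and that of Kcnj14 for RGC over Müller barcodes to 0.92. It also ended the call of Kcnc4 for RGC over bipolar barcodes, at 0.82 in place of 2.83, and lowered Kcna2 to 1.41 and Kcnd2 to 1.74, from 3.09 and 2.97. With barcodes of more than 1 class kept, the RGC over bipolar log2 ratios fell to 1.40 for Kcnd2, 1.93 for Kcna2, 1.91 for Kcnip1 and 2.44 for Kcnip4, from 2.97, 3.09, 3.03 and 3.58, and all 4 stayed past 2-fold. With a class of no UMI set to 3 UMIs, chosen after seeing the data, 9 genes were higher in RGC than in amacrine barcodes. Against RGC barcodes without a UMI of the subset gene, 6 genes were higher in the Pvalb subset and 0 in the Cartpt subset. Median-of-ratios scaling moved all log2 ratios by -0.12 against horizontal and -0.31 against Müller barcodes. The median share of barcodes with a UMI over the 69 genes was 2.80% in RGC and 0.737% in horizontal barcodes at 3000 UMIs, 9.80% and 2.14% at 12000, and 13.6% and 1.72% on full counts. The causes were not tested, and neither was the part of the fewer barcodes that some settings left. No paired analysis was possible because no barcode is tied to a retina, and for the same reason no retina could be left out in turn. With 108 amacrine and 32 Spp1 barcodes, genes under about 5 CPM in those groups rest on a few UMIs.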
